A study of Mus musculus with 12 samples.

Results

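Primary tumours of the mouse mammary carcinoma line 4T07 were compared with those of its sister line 67NR, gene by gene and exon by exon. The comparison rests on the 6 arrays whose labels name these lines, 3 of 4T07 and 3 of 67NR, out of 12 arrays in all. The other 6 arrays, 3 of 4T1 and 3 of 168FARN tumours, serve to show which differences set 4T07 apart from its relatives. Cells of each line had been placed in the mammary fat pad number 4 of female BALB/c mice aged 3 months, and the labels count 15 mice for 4T07, 13 for 4T1, 11 for 168FARN and 8 for 67NR. No cells or mice received a treatment, and tumours were removed when the mean size in a group was 1 to 2 cm. Total RNA was biotin-labelled and hybridised to an Affymetrix exon array, which carries several short probe groups (probesets) along most genes. Each group is 1 cell line, so the line and its behaviour cannot be told apart. The labels do not tie the arrays to separate animals, so a p-value here reflects variation among the arrays of a line, part or all of which could be technical.

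The lines descend from a single spontaneous mammary tumour of a BALB/c mouse and are used as a series of metastatic stages. 67NR grows as a primary tumour and does not spread, 168FARN cells are found in lymph nodes, 4T07 cells travel as far as the lung but seldom grow out there, and 4T1 completes the process. Carcinoma cells can hold an epithelial state, with keratins and E-cadherin junctions, or a mesenchymal state driven by transcription factors such as Zeb1, Twist1 and Snai2, and the passage between them is called epithelial-mesenchymal transition (EMT). A transplanted tumour also contains cells of the host, among them macrophages, neutrophils, mast cells, fibroblasts and vessels, and the array reads the RNA of all of them together, so fewer cells of a type and less RNA per cell cannot be told apart.

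Genes with fewer than 3 probesets were set aside. The level of each of the other 15025 was the median log2 signal over its probesets, and every change is a difference of log2 levels, 4T07 minus 67NR. Array medians lay between 7.21, on 4T07 array 1, and 7.57, on 4T07 array 3, with 67NR arrays at 7.34 to 7.44. Arrays of the same line correlated with each other at 0.979 to 0.989 on average, and 4T07 arrays with 67NR arrays at 0.938 to 0.943. Levels under 5.08, the 95th percentile of olfactory receptor genes, are treated as background. A gene passed where limma's test gave a Benjamini-Hochberg adjusted p under 0.05, which 23.7% of all genes did. By direction, 11.0% of genes were higher in 4T07 and 12.7% were lower, 1653 and 1908 genes. Which direction held more genes depended on single arrays, with 1818 higher and 1318 lower without 4T07 array 1 and 1329 higher and 1234 lower without 67NR array 2. The 3 arrays of one line lay wholly beyond the 3 of the other for 36.9% of genes. Most genes named below were picked among called genes of this kind, so that trait is no added evidence for them. The median change over all genes was -0.04, with quartiles of -0.31 and 0.23. Precision is limited by having 3 arrays a line.

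The labels were first set against markers. Both lines were labelled as mammary carcinoma tumours. Of 9 measured keratins, 5 were higher in 4T07, 0 were lower and 4 did not pass. Krt18, an intermediate filament protein of simple epithelia, changed most among them, by 5.53. It stood at 11.71, 10.91 and 12.40 in 4T07 tumours, against 5.95, 5.34 and 7.11 in 67NR tumours. Cdh1, E-cadherin itself, stood at 8.39, 8.20 and 9.32 in 4T07 tumours, against 6.23, 6.04 and 6.36 in 67NR tumours. Of 51 measured genes of epithelial junctions and keratins, 32 were higher in 4T07 and 1, an adhesion gene, was lower. The median change was 1.24, or 0.91 without 4T07 array 3, and single changes ran from -3.77 to 5.53. On average these markers were low in 67NR tumours and varied between arrays in 4T07 tumours. Array 3 was the highest of the 3 4T07 arrays in 30 of the 32 genes that rose, against 6818 of all 15025 genes. Esrp1, a splicing factor of epithelial cells, shows the width of that spread, with 7.68, 6.84 and 9.55 in 4T07 tumours against 4.03, 4.43 and 5.15 in 67NR tumours. It was at least 7.70-fold higher in 4T07. Epcam, an epithelial adhesion protein, changed by 4.09 with all arrays and by 3.44 without 4T07 array 3.

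**Figure D1:**
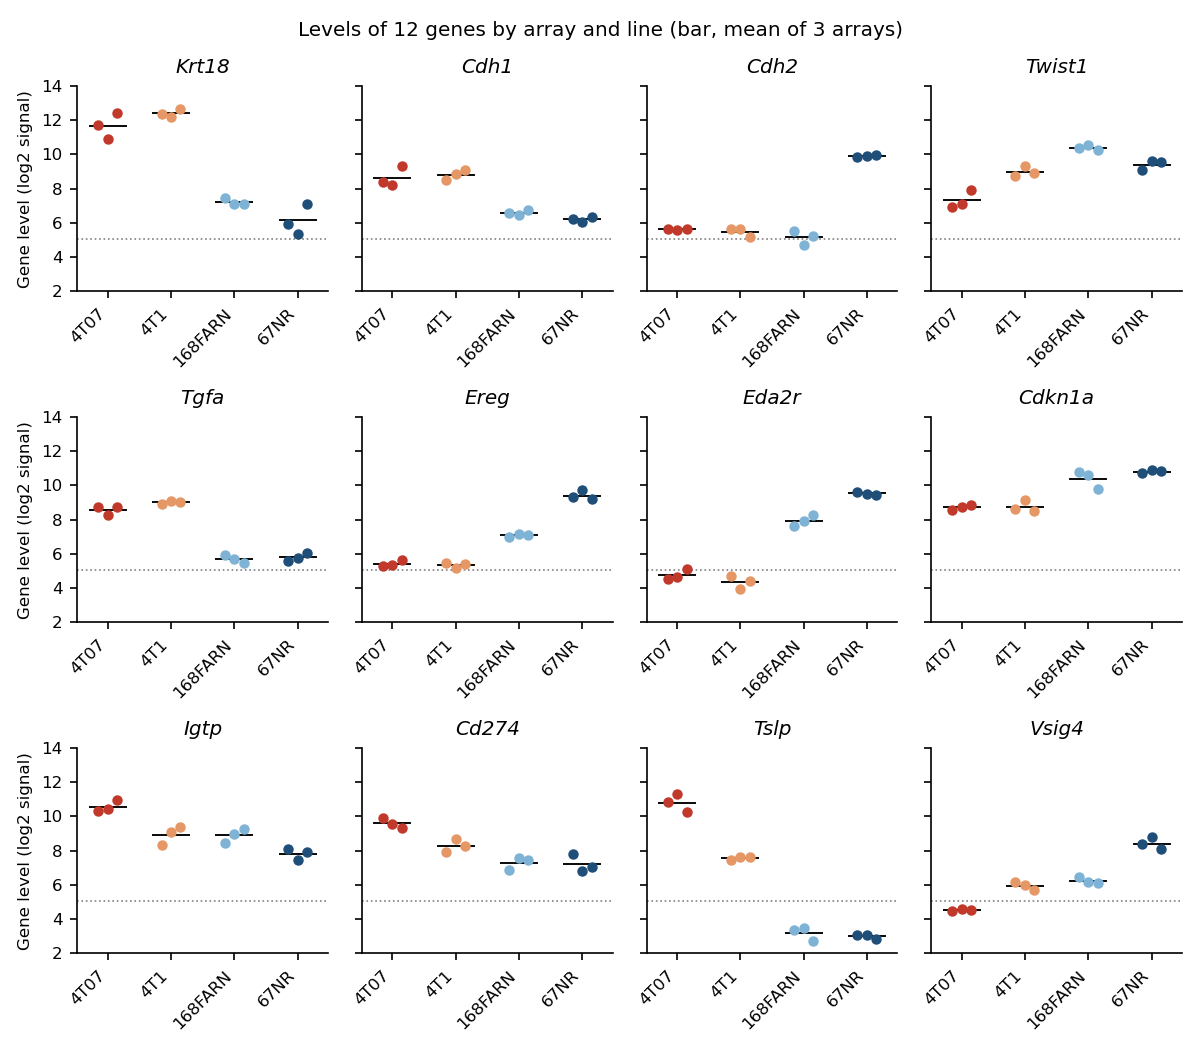
Level of 12 genes on each array (vertical axis, log2 signal) by line (horizontal axis, 4T07, 4T1, 168FARN, 67NR), 1 point per array, with a bar at the mean of 3 arrays and a dotted line at the background level of 5.08. Krt18, Cdh1, Tgfa, Igtp, Cd274 and Tslp are higher on every 4T07 array than on every 67NR array, and Cdh2, Twist1, Ereg, Eda2r, Cdkn1a and Vsig4 are lower.

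The transcription factors of EMT moved the other way, though not as a block. Of 10 measured factors, 6 were lower in 4T07 and 2 were higher, with a median change of -1.37. Twist1, which drives mesenchymal programmes in development and in tumours, stood at 6.90, 7.13 and 7.89 in 4T07 tumours, against 9.08, 9.59 and 9.53 in 67NR tumours. Zeb1, a repressor of E-cadherin, stood at 7.04, 6.58 and 7.01 in 4T07 tumours, against 8.53, 8.48 and 8.53 in 67NR tumours. The 2 genes fell by 2.09 (SE 0.25, adjusted p = 3.94e-05) and by 1.64 (adjusted p = 1.48e-05) in limma's test. Snai2, a relative of Snail, fell by 1.84, Twist2 by 1.10, Prrx1 by 2.57 and Foxf2 by 2.83. Snai1, Snail itself, went against these with a rise of 0.62 (adjusted p = 0.0461 in limma's test), a call that was lost in 8 alternatives. Zeb2 changed by -0.41 and Vim, the filament protein vimentin, by -0.26, and neither passed. Vim was bright in both lines, at 13.26, 13.35 and 13.35 in 4T07 tumours and 13.54, 13.58 and 13.62 in 67NR tumours. Over the whole list of 26 mesenchymal genes and EMT factors, 12 were lower and 6 were higher, with 3 higher when 67NR array 3 was left out.

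The cadherins themselves exchanged places. Cdh2, N-cadherin, which joins mesenchymal and neural cells, stood at 5.63, 5.58 and 5.67 in 4T07 tumours, against 9.87, 9.89 and 9.96 in 67NR tumours. It fell by 4.28 on the log2 scale, the largest fall among genes measured above background in both lines. Cdh11, a cadherin of mesenchymal and bone-forming cells, ran opposite to it, at 8.91, 8.07 and 9.42 in 4T07 tumours against 6.23, 6.31 and 6.22 in 67NR tumours. Nectin3, which works beside cadherins, fell by 2.35, and Tns4, a tensin at cell-matrix contacts, rose by 5.15. Itgb4, the integrin chain of hemidesmosomes, stood at 9.66, 9.90 and 10.25 in 4T07 tumours, against 6.50, 6.57 and 6.44 in 67NR tumours, and rose by 3.43. In 4T07 tumours an epithelial cadherin and a mesenchymal one, Cdh1 and Cdh11, were thus both higher.

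Growth factor genes changed partner by partner. The EGF receptor answers to a family of ligands, and the lines held different ones. Tgfa, transforming growth factor alpha, stood at 8.72, 8.29 and 8.74 in 4T07 tumours, against 5.61, 5.75 and 6.05 in 67NR tumours. Ereg, epiregulin, stood at 5.29, 5.37 and 5.64 in 4T07 tumours, against 9.33, 9.71 and 9.20 in 67NR tumours. The groups lay far apart for both, with Tgfa 6.86-fold higher in 4T07 (adjusted p = 2.28e-07, limma) and Ereg lower by 3.98 on the log2 scale (adjusted p = 7.57e-09, limma). Btc, betacellulin, stood at 5.95, 5.09 and 5.23 in 4T07 tumours, against 8.23, 9.19 and 7.89 in 67NR tumours, and fell by 3.01. Hbegf fell by 1.35. In all, 2 of 7 measured ligands were higher in 4T07 and 4 were lower. Egfr, the receptor, rose by 1.31 (adjusted p = 0.002, limma), while Erbb2 and Erbb3 did not pass, with changes of 0.28 and 0.44.

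Of 19 measured MAP kinase feedback and target genes, 3 were higher and 2 were lower, with a median change of 0.04. These were 15.8% and 10.5%, near the 11.0% and 12.7% of all genes. Spry1, an inhibitor of receptor kinase signalling, stood at 9.55, 9.96 and 10.40 in 4T07 tumours, against 7.71, 7.63 and 7.47 in 67NR tumours. Errfi1, a direct inhibitor of the EGF receptor, stood at 10.90, 11.17 and 11.33 in 4T07 tumours, against 9.63, 9.67 and 9.32 in 67NR tumours. Both were higher on every 4T07 array, by 2.37 and 1.59. Rps6ka6, a ribosomal S6 kinase, stood at 7.27, 7.97 and 7.83 in 4T07 tumours and at background in 67NR tumours, at 3.03, 2.72 and 2.95, so it was at least 6.11-fold higher in 4T07.

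The fibroblast growth factor receptors were exchanged as well. Fgfr1 stood at 8.26, 8.35 and 8.81 in 4T07 tumours, against 10.73, 10.78 and 10.51 in 67NR tumours, a fall by 2.20 (adjusted p = 4.16e-06, limma). Fgfr2 stood at 9.65, 9.88 and 10.02 in 4T07 tumours, against 7.75, 7.95 and 7.58 in 67NR tumours, a rise of 2.09 (adjusted p = 1.51e-05, limma) that was 1.34 with the mean over probesets in place of the median. The probesets of these genes did not move together, as set out with the exon results. Fgf7, a ligand of the epithelial form of Fgfr2, stood at 7.95, 8.14 and 7.75 in 4T07 tumours, against 6.05, 4.60 and 5.66 in 67NR tumours. Among the ephrins, which signal between touching cells, Efnb2 rose by 2.87 and Efna5 by 2.37, and the receptor Epha1 was at least 13.0-fold higher in 4T07. Kitl, the ligand of the mast cell receptor Kit, fell by 1.63, and Gas6, a ligand of the Axl family, fell by 1.60. Of 46 measured receptor kinases and ligands outside the EGF family, 15 were higher and 7 were lower.

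Among hedgehog genes, Hhip and Cdon were higher in 4T07 and Gas1 was lower. Hhip, a decoy receptor that binds hedgehog ligands, stood at 9.11, 9.54 and 9.42 in 4T07 tumours and at background in 67NR tumours, at 3.48, 4.34 and 3.48. It was at least 19.4-fold higher in 4T07. Cdon, a hedgehog co-receptor, stood at 10.58, 11.02 and 10.36 in 4T07 tumours, against 6.35, 6.55 and 6.55 in 67NR tumours, and rose by 4.17. Gas1, another co-receptor, moved the other way, at 7.69, 7.39 and 8.15 in 4T07 tumours against 10.25, 10.16 and 10.02 in 67NR tumours. The signal transducer Smo changed by 0.05, the pathway targets Gli1 and Ptch1 by -0.27 and -0.50, and none of these 3 passed in limma's test. Of the 11 measured hedgehog genes, 2 were higher and 1 was lower, 18.2% and 9.09%, against 11.0% and 12.7% of all genes.

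On the Wnt side, Fzd6, a Wnt receptor, stood at 9.32, 9.13 and 10.02 in 4T07 tumours, against 6.24, 5.82 and 5.84 in 67NR tumours. Notum, an enzyme that inactivates Wnt proteins, stood at 9.13, 9.98 and 8.74 in 4T07 tumours, against 6.83, 7.29 and 6.38 in 67NR tumours. The ligand Wnt7b rose by 2.08 and the secreted inhibitors Sfrp1 and Sfrp2 by 1.88 and 1.53, so a ligand, a receptor and several antagonists were all higher in 4T07. Of 34 Wnt genes in the list, 6 of 19 ligands and receptors and 6 of 15 antagonists and targets were higher, and 1 ligand or receptor gene was lower. Among 50 genes of the TGF-beta and BMP pathway, 17 were higher and 2 were lower. Inhba, an activin subunit, rose by 2.02, while Fst and Grem1, inhibitors of activin and of BMPs, were at least 5.68-fold and 5.36-fold higher in 4T07. Ltbp4, which stores TGF-beta in the matrix, rose by 2.24.

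**Figure D2:**
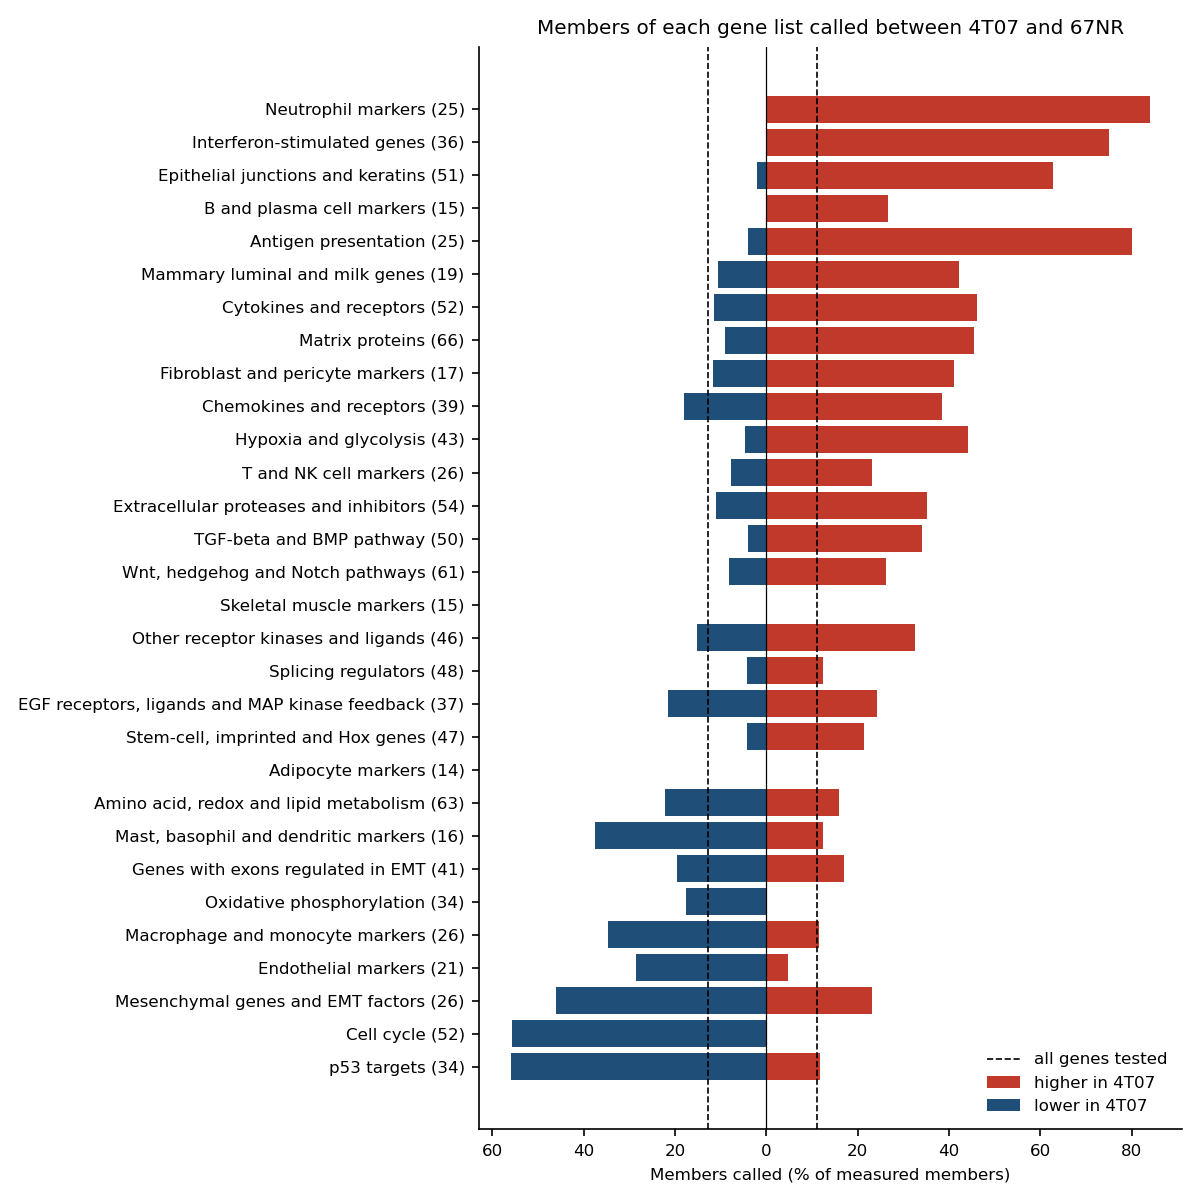
Share of the measured members of each gene list called between 4T07 and 67NR (horizontal axis, percent), with members higher in 4T07 drawn to the right of 0 and members lower in 4T07 to the left; dashed lines mark the shares among all genes tested, 11.0% and 12.7%, and the number of measured members follows each list's name. Lists run from the highest median change at the top to the lowest at the bottom, with neutrophil markers, interferon-stimulated genes and epithelial genes highest and p53 targets and cell cycle genes lowest.

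Targets of the tumour suppressor p53 were lower in 4T07 in the majority of cases. Of 34 measured targets, 19 were lower and 4 were higher, with a median change of -0.57, and the number lower lay between 14 and 20 over the alternatives. Cdkn1a, the p21 inhibitor of cyclin-dependent kinases, stood at 8.58, 8.73 and 8.85 in 4T07 tumours, against 10.73, 10.88 and 10.83 in 67NR tumours. Mdm2, which degrades p53 and is itself a target, stood at 8.57, 8.86 and 9.16 in 4T07 tumours, against 9.98, 10.28 and 10.18 in 67NR tumours. Both fell, by 2.09 (adjusted p = 3.38e-05, limma) and 1.29 (adjusted p = 7.05e-05, limma). Eda2r, a member of the TNF receptor family, stood at 4.52, 4.66 and 5.09 in 4T07 tumours, against 9.61, 9.52 and 9.46 in 67NR tumours, and was thus at least 21.8-fold lower in 4T07. Ccng1 fell by 1.34, Zmat3 by 1.70, Phlda3 by 1.07 and the phosphatase Ppm1d by 0.95.

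The 4 p53 targets that were higher were Perp, Tnfrsf10b, Fas and Gadd45a. Perp, which is also part of desmosomes, averaged 7.96 ± 1.07 in 4T07 tumours and was at background in 67NR tumours, at 4.71 ± 0.05 (SD, n = 3 each), so it was at least 7.35-fold higher in 4T07. Tnfrsf10b, the mouse receptor of the death ligand TRAIL, stood at 8.56, 8.75 and 8.63 in 4T07 tumours, against 6.43, 6.61 and 5.98 in 67NR tumours, and rose by 2.31. Fas, another death receptor, was at least 1.64-fold higher, and Gadd45a, which answers to DNA damage, rose by 0.90. Perp also belongs to the epithelial list, of which 32 of 51 members rose. Cdkn2a, whose products hold back the cell cycle and protect p53, stood at 6.79, 6.22 and 6.16 in 4T07 tumours, against 8.04, 7.98 and 8.75 in 67NR tumours, and fell by 1.87.

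Cell cycle genes were lower in 4T07 as far as they differed. Of 52 measured genes, 29 were lower and 0 were higher by limma, 33 and 0 at an unadjusted p under 0.05, with a median change of -0.57. The count leaned on single arrays, since 12 were lower without 4T07 array 1, 17 without 4T07 array 2, 13 without 67NR array 2 and 15 without 67NR array 3. Cdk1, the kinase that starts mitosis, stood at 9.15, 9.69 and 9.77 in 4T07 tumours, against 10.50, 10.66 and 10.45 in 67NR tumours, and fell by 1.00. Mcm2, of the helicase that opens replication origins, fell by 0.82, and Ccnd1, cyclin D1, by 0.59. Mki67, the proliferation marker Ki-67, stood at 9.56, 9.45 and 9.91 in 4T07 tumours, against 10.53, 10.40 and 10.27 in 67NR tumours, and its call was lost in 4 of the fits that left out an array. Top2a, another proliferation marker, changed by -0.20 and did not pass. Of the 9 measured cell cycle inhibitors in the list, 2 were lower, among them Cdkn1a.

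Interferon-stimulated genes were the list with the largest share of higher members after the neutrophil markers and antigen presentation. Of 36 measured genes, 27 were higher and 0 were lower by limma, 32 and 0 at an unadjusted p under 0.05, with a median change of 1.35, and the number higher ran between 24 and 32 over the alternatives. All 6 of the measured GTPases of the list, which attack membranes around intracellular parasites and are induced by interferon-gamma, were higher. Igtp, an immunity-related GTPase, stood at 10.33, 10.41 and 10.96 in 4T07 tumours, against 8.10, 7.44 and 7.90 in 67NR tumours, and rose by 2.75 (adjusted p = 1.45e-05, limma). Irgm2 rose by 2.34, Gbp4 by 2.57 and Gbp2b by 1.94, all 3 chosen after their values were seen. These families hold near-identical copies, and probes could read more than 1 of them, so the values of single members are uncertain. Irf9 and Stat2, the partners that carry the type I interferon signal to DNA, rose by 1.54 and 1.37, and Irf1, which answers to interferon-gamma, by 1.32. Ifng, interferon-gamma itself, stood at 6.20, 6.66 and 6.31 in 4T07 tumours, against 5.66, 5.08 and 5.26 in 67NR tumours, with an adjusted p of 0.0154 in limma's test that passed the threshold neither without 4T07 array 2 nor without 67NR array 2. Ifit2, a classical type I target, changed by -0.30 and did not pass.

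Some promoters of these genes carry the interferon-stimulated response element, searched here as GAAANNGAAA on both strands of the 250 bases before each start site. It was present in 2.98% of all promoters and in 10 of the 26 list genes that have a promoter in the RefSeq table, 8 of 18 that were higher and 2 of 8 that did not pass. A list gene counted where any of its promoters held a match, so its share and that of all promoters are in unlike units. The windows below, 60 bases each from assembly GRCm38.p6 as RefSeq gives them, belong to GTPase genes that rose. They were picked because they hold a match, shown in capitals. A match describes the sequence only.
Igtp, chr11:58199496-58199555, plus strand: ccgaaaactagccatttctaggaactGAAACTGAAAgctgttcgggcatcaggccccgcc
Irgm2, chr11:58214888-58214947, plus strand: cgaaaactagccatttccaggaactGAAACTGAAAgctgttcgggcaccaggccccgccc
Irgm1, chr11:48871421-48871480, minus strand: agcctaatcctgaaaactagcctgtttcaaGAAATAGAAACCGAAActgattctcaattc
Gbp3, chr3:142559974-142560033, plus strand: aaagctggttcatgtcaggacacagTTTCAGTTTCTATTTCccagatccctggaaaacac
Gbp2b, chr3:142594685-142594744, plus strand: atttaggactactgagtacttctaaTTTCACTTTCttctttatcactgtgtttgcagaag
Irgm1 and Gbp3 each hold 2 overlapping matches, and the windows of Igtp and Irgm2, neighbours on chromosome 11, hold the same element in nearly the same surroundings.

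Antigen presentation genes rose with the interferon-stimulated genes. Of 25 measured members, 20 were higher and 1 was lower, with a median change of 0.96, and 14 were higher without 67NR array 2. The immunoproteasome subunit Psmb8 stood at 9.35, 9.85 and 9.99 in 4T07 tumours, against 7.68, 7.03 and 7.25 in 67NR tumours. H2-K1, a class I heavy chain, rose by 0.72, and B2m, its light chain, changed by 0.14 and did not pass at levels above 13 in both lines. Ciita, the master regulator of class II genes, rose by 1.10. The checkpoint ligands that restrain T cells through PD-1 were higher too. Cd274, PD-L1, stood at 9.90, 9.57 and 9.31 in 4T07 tumours, against 7.80, 6.80 and 7.02 in 67NR tumours, and rose by 2.39 (adjusted p = 3.73e-05, limma). Pdcd1lg2, PD-L2, stood at 8.60, 9.46 and 8.64 in 4T07 tumours, against 6.71, 5.52 and 5.58 in 67NR tumours, and rose by 2.96 (adjusted p = 1.26e-05, limma). Cd80, a ligand that T cells read as costimulation, fell by 0.65.

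Neutrophil and B cell marker levels moved beside these genes, while those of T and NK cells overlapped between the lines. The mean level over 25 neutrophil markers was 7.95 to 8.29 on the 4T07 arrays and 6.21 to 6.64 on the 67NR arrays, and 21 markers were higher and 0 were lower by limma, 22 and 1 at an unadjusted p under 0.05. Mpo, myeloperoxidase, stood at 5.84, 7.01 and 6.44 in 4T07 tumours, against 4.98, 4.62 and 5.11 in 67NR tumours, while Itgam, an integrin shared by neutrophils and macrophages, changed by 0.01 and did not pass. T and NK cell markers had mean levels of 6.62, 7.38 and 6.83 in 4T07 tumours, against 6.80, 6.59 and 6.55 in 67NR tumours, with 6 of 26 higher and 2 lower. Only 2 to 3 were higher without 67NR array 2 or 3 or 4T07 array 2 or 3, and 1 was lower without 67NR array 3 or 4T07 array 1 or 3. Gzma, a granzyme, fell by 2.20 among them. B and plasma cell markers stood at 7.31, 7.97 and 6.91 in 4T07 tumours, against 6.23, 6.37 and 6.27 in 67NR tumours, yet only 4 of 15 passed, and 1 to 2 did so without any single 67NR array or without 4T07 array 1 or 2. Whether these cells account for the interferon and antigen presentation genes was not tested.

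Macrophage genes divided into those that fell and those that rose. Of 26 markers 9 were lower and 3 were higher, with mean levels of 8.53 to 8.78 in 4T07 tumours, against 9.06 to 9.15 in 67NR tumours. General markers differed little, with Cd68 at -0.38 and the complement gene C1qa at -0.42, neither passed, and Csf1r, the growth factor receptor of macrophages, lower by 0.84. Vsig4, a complement receptor of resident tissue macrophages, stood at 4.46, 4.59 and 4.52 in 4T07 tumours, against 8.36, 8.79 and 8.08 in 67NR tumours, and was at least 10.1-fold lower in 4T07. Folr2, a folate receptor, stood at 8.45, 8.53 and 8.45 in 4T07 tumours, against 10.44, 10.55 and 10.42 in 67NR tumours. Lyve1, a hyaluronan receptor shared with lymphatic vessels, fell by 3.02, and the sialic acid receptor Siglec1 fell by 1.52. Nos2, the inducible nitric oxide synthase, ran opposite, at 8.74, 8.45 and 8.61 in 4T07 tumours against 6.40, 5.70 and 5.85 in 67NR tumours, and rose by 2.62 (adjusted p = 2.36e-06, limma). Of the chemokines that draw monocytes, Ccl2 stood at 7.76, 7.97 and 7.72 in 4T07 tumours, against 9.45, 9.46 and 9.50 in 67NR tumours, and fell by 1.66.

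Of 16 mast cell, basophil and dendritic cell markers, 6 were lower in 4T07, 2 were higher and 8 did not pass, with a median change of -0.06, and 1 was higher without 67NR array 1 or 3 or 4T07 array 2 or 3. Cpa3, the mast cell carboxypeptidase, stood at 6.08, 6.90 and 6.19 in 4T07 tumours, against 10.07, 10.42 and 9.13 in 67NR tumours, and fell by 3.48 (adjusted p = 6.24e-06, limma). Fcer1a, the binding chain of the IgE receptor, was at background on 2 of 3 4T07 arrays, at 4.35, 5.16 and 4.13, against 6.81, 7.15 and 6.01 in 67NR tumours. The chymase Cma1 fell by 1.37. Mcpt8, a protease of basophils, was at least 1.96-fold higher in 4T07, so the mast cell and basophil genes of the list did not move as one. Kitl, the growth factor of mast cells, fell by 1.63, as given above with the receptor kinases.

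Of 52 measured cytokines and receptors, 24 were higher and 6 were lower, among them 13 and 3 of the 27 cytokines. Tslp, which acts on dendritic cells and type 2 immunity, stood at 10.85, 11.32 and 10.23 in 4T07 tumours and at background in 67NR tumours, at 3.05, 3.08 and 2.83, at least 52.8-fold higher in 4T07. Il23a, a subunit of interleukin-23, stood at 7.38, 7.12 and 8.00 in 4T07 tumours, against 4.98, 4.95 and 5.03 in 67NR tumours. Csf3, the growth factor of neutrophils known as G-CSF, stood at 7.09, 6.84 and 7.30 in 4T07 tumours, against 5.15, 5.36 and 5.56 in 67NR tumours, and rose by 1.72. Tnfsf13b, the B cell survival factor BAFF, rose by 1.83. Il1r2, a decoy receptor for interleukin-1, was at least 5.30-fold higher. Neutrophil and B cell marker levels given above were higher on every 4T07 array, while T and NK cell levels overlapped between the lines. The part of these cells in the cytokine genes was not tested. Il33, an alarm cytokine of stromal and epithelial nuclei, fell by 1.99.

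Matrix genes, which the stroma and mesenchymal tumour cells make, were higher in 4T07 although many EMT factors were lower. Of 66 measured genes, 30 were higher and 6 were lower, with a median change of 0.44. Col12a1, a collagen that sits on collagen I fibres, stood at 10.26, 9.45 and 10.68 in 4T07 tumours, against 7.39, 6.55 and 6.85 in 67NR tumours. Postn, periostin, stood at 11.13, 10.27 and 11.41 in 4T07 tumours, against 9.31, 8.67 and 9.27 in 67NR tumours, and Tnc, tenascin C, at 10.88, 9.88 and 11.22 against 8.93, 8.64 and 8.58. In each of these 3 genes 4T07 array 2 was the lowest of its group and still lay above every 67NR array. Of 7 fibrillar collagens 4 rose, among them Col1a1 and Col1a2 by 1.75 each. Fbln1, fibulin-1, fell by 2.23. Fibroblast and pericyte markers, some of which are matrix genes themselves, had mean levels of 8.08 to 8.45 in 4T07 tumours, against 8.04 to 8.29 in 67NR tumours, with 7 of 17 higher and 2 lower, and 4 higher without 67NR array 1 or 4T07 array 1. Among these, Pdpn, podoplanin, fell by 3.64 and the pericyte gene Rgs5 by 1.44. The part of fibroblasts in the matrix genes was not tested.

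Proteases of the matrix and their inhibitors rose together in 19 of 54 measured genes and fell in 6, or in 2 without 67NR array 2. Slpi, an inhibitor of neutrophil elastase, stood at 11.60, 11.80 and 11.29 in 4T07 tumours, against 6.81, 6.65 and 7.46 in 67NR tumours, and Serpine2, an inhibitor of thrombin and plasminogen activators, rose by 4.52. Mmp13, a collagenase, stood at 9.48, 8.69 and 9.82 in 4T07 tumours, against 7.13, 6.53 and 6.63 in 67NR tumours. Membrane serine proteases of one family were exchanged. Tmprss11e stood at 9.53, 7.47 and 10.31 in 4T07 tumours and at background in 67NR tumours, at 4.17, 4.19 and 4.15, whereas Tmprss11f was at background in 4T07 tumours, at 3.60, 3.46 and 3.11, against 7.32, 7.48 and 7.07 in 67NR tumours.

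Of 43 measured genes of hypoxia and glycolysis, 19 were higher in 4T07 and 2 were lower. Of 10 measured core genes of the hypoxia-inducible factor (HIF), 1 passed, while 10 of 19 glycolysis genes and 8 of 14 other induced genes were higher, and 2 glycolysis genes were lower, or 1 without any single array of either line other than 4T07 array 2. Car9, a carbonic anhydrase at the cell surface and a classical HIF target, stood at 9.64, 9.81 and 9.45 in 4T07 tumours, against 6.52, 6.32 and 6.14 in 67NR tumours. Pdk1, which keeps pyruvate out of mitochondria, stood at 8.96, 9.27 and 8.98 in 4T07 tumours, against 7.17, 6.43 and 6.46 in 67NR tumours. The lactate exporter Slc16a3 rose by 2.01. Hif1a, the oxygen-regulated subunit, changed by 0.37 and Vegfa, the vessel growth factor, by -0.07, neither passed, and the glucose transporter Slc2a1 rose by 0.69 (adjusted p = 0.0318, limma), which was lost without 4T07 array 1 or 2 or 67NR array 2 or 3. Of the core genes Egln3, an oxygen sensor that HIF induces, was the one that passed (adjusted p = 0.0245, limma), a call lost in 5 of the 6 fits that left out an array of either line. Of 34 oxidative phosphorylation genes, 6 were lower and 0 were higher by limma, 9 and 1 at an unadjusted p under 0.05, with 2 lower without 67NR array 2 and 3 without 4T07 array 1. The 6 were 17.6% of the list, against 12.7% lower among all genes.

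The core of the hypoxia response element, ACGTG on either strand, is short and common, and 16.6% of all promoters hold it in the same 250 bases. It was found in 21 of the 39 list genes with a promoter in the table, 11 of 18 that were higher, 9 of 19 that did not pass and 1 of 2 that were lower. List genes were again counted by any of their promoters. The windows of 3 genes of the list that rose and hold the core are given with the core in capitals.
Car9, chr4:43506966-43507025, plus strand: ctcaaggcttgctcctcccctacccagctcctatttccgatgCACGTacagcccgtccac
Egln3, chr12:54204065-54204124, minus strand: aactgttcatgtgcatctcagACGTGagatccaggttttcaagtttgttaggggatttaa
Slc16a3, chr11:120949007-120949066, plus strand: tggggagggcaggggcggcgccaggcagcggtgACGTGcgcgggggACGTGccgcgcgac

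Redox and amino acid genes differed gene by gene. Slc7a11, the cystine importer that feeds glutathione synthesis, stood at 8.08, 8.44 and 9.28 in 4T07 tumours, against 5.88, 5.09 and 5.82 in 67NR tumours, and rose by 3.00. Glutathione transferases went the other way. Gstm1 stood at 8.08, 8.83 and 8.19 in 4T07 tumours, against 10.96, 10.83 and 10.73 in 67NR tumours, and Gsta4 and Gstm2 fell by 2.06 and 1.27. Such transferases have close paralogues that probes may share, so their single values are uncertain. Ephx1, an epoxide hydrolase, stood at 7.69, 8.56 and 8.22 in 4T07 tumours, against 11.63, 11.77 and 11.69 in 67NR tumours. Over the 63 genes of the list, 10 were higher and 14 were lower, with 8, 8 and 9 lower without 67NR array 1, 2 and 3. With all arrays these were 15.9% and 22.2%, against 11.0% and 12.7% of all genes.

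Milk protein genes were present in 4T07 tumours at levels that differed widely between arrays. Csn2, beta-casein, stood at 7.06, 8.44 and 9.44 in 4T07 tumours, against 5.47, 4.94 and 5.23 in 67NR tumours. Csn1s2a, another casein, stood at 5.47, 7.38 and 9.08 in 4T07 tumours and at background in 67NR tumours, at 3.75, 3.60 and 2.69. Csn1s1 was at background on 4T07 array 1, at 3.99, and at 7.35 and 8.27 on arrays 2 and 3, against 3.29, 2.87 and 2.37 in 67NR tumours. All 3 passed in limma's test, with adjusted p-values of 0.000813, 0.00109 and 0.00316, although the range within 4T07 was wider than 2 on the log2 scale. Without 4T07 array 1 the change of Csn2 was 3.72, and the changes of Csn1s2a and Csn1s1 are bounds, at least 4.69-fold and 2.75-fold with all arrays. Of 10 milk genes measured, 6 were higher and 0 were lower. Glycam1, which is also made by vessels of lymph nodes, was highest on 4T07 array 2 at 9.53 and did not pass. The regulators Stat5a and Esr1, which carry the prolactin and oestrogen signals, changed by -0.15 and 0.29 and did not pass, while Elf5, a factor of milk-producing cells, was at least 1.90-fold higher. Adipocyte markers of the fat pad had mean levels of 7.40, 8.09 and 7.50 in 4T07 tumours, against 7.29, 7.45 and 8.23 in 67NR tumours, with 0 of 14 passed by limma, 1 lower at an unadjusted p under 0.05, and 3 higher without 67NR array 3. The part of host mammary gland in the milk genes was not tested.

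The 2 other lines show where these differences stand in the series. Against 4T1, 2.38% of genes passed, 274 higher in 4T07 and 83 lower, while 28.3% passed against 168FARN, 1718 higher and 2530 lower. With quantile normalization the first split was 312 and 169, and with centred arrays 264 and 169. Single arrays moved this split. Without 4T07 array 3 it was 265 higher and 266 lower, without 4T07 array 1 it was 306 and 54, and without 4T07 array 2 it was 131 and 27. Without 4T1 array 1, 2 and 3 it was 133 and 23, 204 and 29, and 173 and 51. Skeletal muscle genes stood out on 168FARN arrays 2 and 3, whose mean level over 15 muscle markers was 7.91 and 8.77, against 5.37 to 6.25 on the 4T07 arrays. Without those 2 arrays the count against 168FARN was 2112. Tgfa averaged 8.58 in 4T07 and 9.01 in 4T1, against 5.69 in 168FARN and 5.80 in 67NR. Fgfr1 followed the same division, at 8.47 in 4T07 and 8.66 in 4T1, against 10.34 in 168FARN and 10.67 in 67NR. Cdkn1a averaged 8.72 in 4T07 and 8.76 in 4T1, against 10.40 in 168FARN and 10.81 in 67NR. In these 3 genes 4T07 did not differ from 4T1 at an adjusted p under 0.05, with values of 0.30, 0.77 and 0.97 in limma's test, which does not show that the lines are alike.

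Some genes set 4T07 apart from all 3 other lines. Called against each of them in 1 direction with a change of at least 1 were 65 genes that were higher and 11 that were lower, 0.506% of all genes, with 38 and 4 without 4T07 array 2, 70 and 23 without 4T07 array 3, 42 and 5 without 4T1 array 1 and 55 and 4 without 4T1 array 2. Tslp averaged 10.80 in 4T07, against 7.56 in 4T1, 3.18 in 168FARN and 2.99 in 67NR. Osr1, a transcription factor of embryonic mesoderm, stood at 9.06, 9.87 and 8.77 in 4T07 tumours, against 6.72 to 6.79 in 4T1, 5.57 to 5.95 in 168FARN and 5.83 to 6.12 in 67NR. Lgals7, galectin-7, a sugar-binding protein of stratified epithelia, stood at 10.04, 10.59 and 9.45 in 4T07 tumours, against 7.04 to 7.13 in 4T1, 7.38 to 7.89 in 168FARN and 6.37 to 6.89 in 67NR. Esm1, a proteoglycan of sprouting vessels, stood at 11.01, 11.46 and 10.25 in 4T07 tumours, against 7.13 to 8.32 in 4T1, 7.26 to 7.55 in 168FARN and 8.00 to 8.77 in 67NR. Groups named earlier return here. The GTPases Igtp and Gbp4, the ligands Cd274 and Pdcd1lg2, Nos2, Jchain, Csn2 and Csn1s2a were all higher than in each other line. Of 36 interferon-stimulated genes 11 were also higher than in 4T1, and 0 were lower. The list as a whole did not stand clear of 168FARN. Its mean levels were 8.60, 9.13 and 9.13 on the 168FARN arrays, against 9.13, 9.31 and 9.53 in 4T07 and 8.03 to 8.19 in 67NR.

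On the lower side, Twist1 averaged 7.31 in 4T07, against 8.99 in 4T1, 10.39 in 168FARN and 9.40 in 67NR. Folr2 averaged 8.48 in 4T07, against 9.60 in 4T1, 9.62 in 168FARN and 10.47 in 67NR, and Vsig4 was lowest in 4T07 as well. Fcrls, a scavenger receptor of macrophages and microglia, stood at 6.22, 5.47 and 6.93 in 4T07 tumours, against 8.18 to 8.92 in 4T1, 8.55 to 8.99 in 168FARN and 9.07 to 9.39 in 67NR. Gpc4, a glypican that binds growth factors, averaged 6.90 in 4T07, against 8.42 in 4T1, 8.83 in 168FARN and 9.83 in 67NR. A single array weighed on the higher genes. Among the 62 with standard symbols, array 2 was the highest of the 3 4T07 arrays in 45, against 5689 of all 15025 genes, and that array also had the highest B and T cell marker levels given above. Without 4T07 array 2, 40 of the 76 genes were still called, and 47 were without 4T1 array 1. Tslp, Lgals7, Twist1 and Folr2 did not overlap with any array of the other lines.

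**Figure D3:**
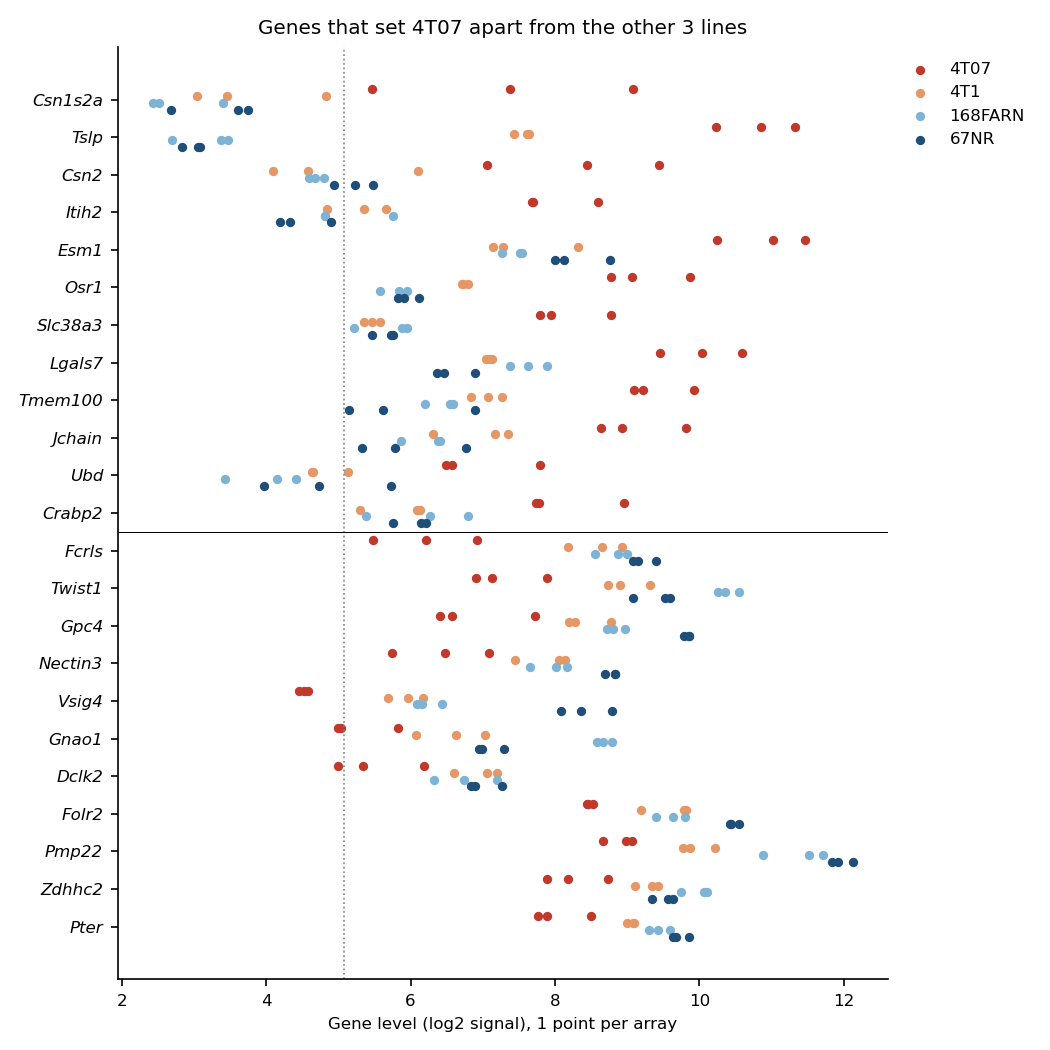
Level of the 23 genes with the largest changes that set 4T07 apart (horizontal axis, log2 signal; 1 gene per row), with points for the 3 arrays of each line coloured by line, 4T07 uppermost in each row, genes higher in 4T07 above the horizontal line, genes lower in 4T07 below it, and a dotted line at the background level of 5.08. Tslp spans 10.23 to 11.32 in 4T07 and 7.43 to 7.64 in 4T1, and the caseins span more than 2 within 4T07.

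Exon probesets were then compared with the other probesets of their own gene, which shows where the signal of a probeset moved apart from its gene. Of 110320 probesets in 7349 genes, 741, or 0.672%, differed from their gene by at least 1 on the log2 scale at an adjusted p under 0.05 in limma's diffSplice. They lay in 396 genes, 5.39% of those tested. That test pools the spread of all probesets of a gene. A splicing index test of each probeset on its own spread was passed in the same direction by 401 of the 741, in 200 genes, 176 relatively higher in 4T07 and 225 relatively lower, and the text below keeps to these. In 165 of the 401 the gene had changed by at least 1 and the probeset by less than 0.5, so that the probeset stayed level while its gene moved. Moxd1 gives such a case, with a probeset at 9.43, 9.81 and 9.45 in 4T07 tumours and 9.50, 9.63 and 9.36 in 67NR tumours beside a gene change of 4.11. The same probeset averaged 9.45 in 168FARN and 9.59 in 4T1. A transcript part that stays level cannot be told apart here from a probeset that reads its gene poorly or reads other RNA. Which of these holds was not tested. In 25 the probeset and its gene moved in opposite directions by at least 0.5 each, and in 32 the probeset moved by at least 1 with a gene change under 0.5.

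**Figure D4:**
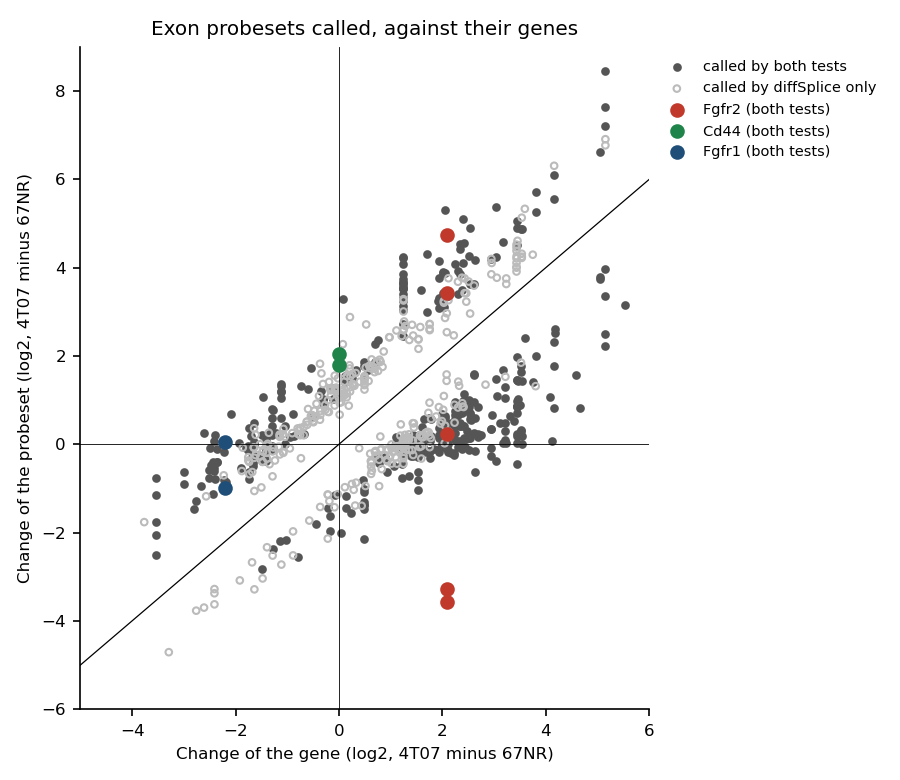
Change of each of the 741 called exon probesets (vertical axis, log2, 4T07 minus 67NR) against the change of its gene (horizontal axis, same unit), with filled points for the 401 called by both tests, open points for the rest and colours for Fgfr2, Cd44 and Fgfr1; the diagonal marks equal change. Many points lie near 0 on the vertical axis at large gene changes, and 3 Fgfr2 points lie below 0 or near it while the gene rose by 2.09.

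Fgfr2 held probesets that moved both ways. Its transcripts exist in an epithelial and a mesenchymal form that use alternative exons for part of the ligand-binding domain, and Esrp1 promotes the epithelial one. Probeset 5179865 stood at 3.49, 4.31 and 4.11 in 4T07 tumours, against 7.75, 7.74 and 7.16 in 67NR tumours, so it was at background where the gene as a whole had risen, with an adjusted p of 1.71e-40 in limma's diffSplice, and the size of its relative fall is a bound. Probeset 5177161 did the same, at 3.68, 4.35 and 4.62 in 4T07 tumours against 7.32, 7.87 and 7.27 in 67NR tumours. Probeset 5026159 went the other way, at 10.52, 10.56 and 10.79 in 4T07 tumours against 5.01, 6.31 and 6.34 in 67NR tumours, a relative change of 3.49, and probeset 5355690 had a relative change of 2.14. The 4T1 tumours resembled 4T07 in these probesets and 168FARN resembled 67NR, with means for probeset 5179865 of 3.97 in 4T07, 3.83 in 4T1, 8.48 in 168FARN and 7.55 in 67NR. Which exon a probeset covers is not annotated in the files used here, so the forms were not assigned.

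**Figure D5:**
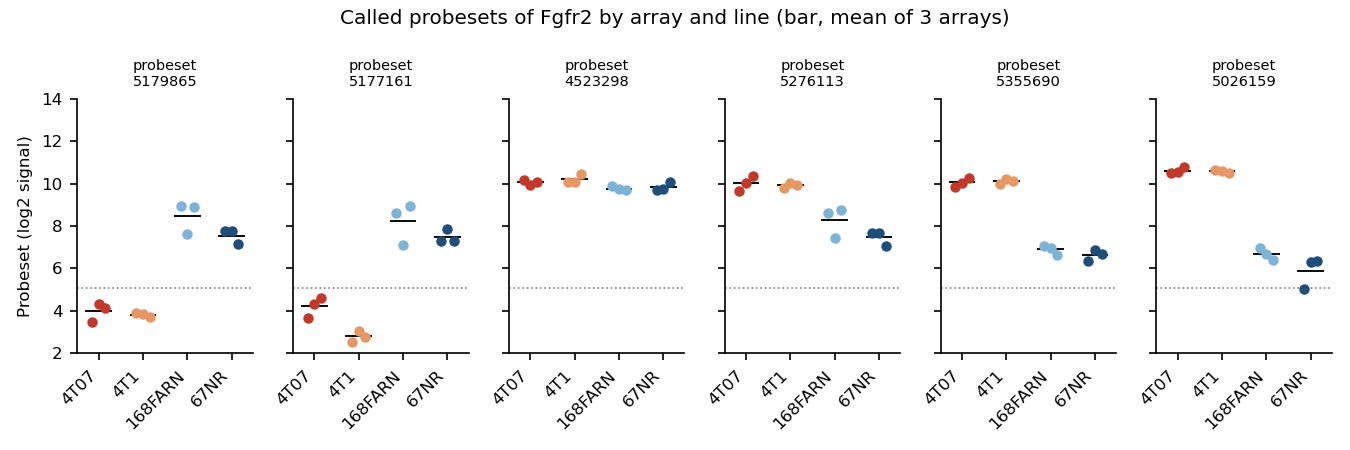
Signal of the 6 called Fgfr2 probesets (vertical axis, log2) by line (horizontal axis), 1 point per array, with a bar at the mean of 3 arrays and a dotted line at 5.08, the background level set on gene medians. Panels run from the lowest to the highest relative change. The 4T07 and 4T1 arrays lie under the line for probesets 5179865 and 5177161, where 168FARN and 67NR arrays lie above 7, and the order turns round for probeset 5026159.

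Cd44, a hyaluronan receptor with a block of variable exons that epithelial cells include, did not change as a gene, at 0.01. Probeset 4712893 stood at 7.42, 6.64 and 9.10 in 4T07 tumours, against 5.46, 6.14 and 5.41 in 67NR tumours, a relative change of 1.93 (adjusted p = 9.47e-06, limma's diffSplice), and probeset 4964816 had a relative change of 1.65. Array 3, with the highest Esrp1 level of the 4T07 arrays, was also the highest in both probesets, and array 2, with the lowest, was the lowest. Array 3 was likewise the highest in 30 of the 32 epithelial genes that rose, so its place is not particular to Esrp1. Whether Esrp1 bears on these probesets was not tested, and the exons they cover are not annotated. In Fgfr1, whose gene level fell by 2.20, probeset 5333109 stayed level at 10.42, 10.17 and 9.70 in 4T07 tumours and 10.13, 9.88 and 10.12 in 67NR tumours. Cd44, Fgfr1 and Fgfr2 were the list members with a called probeset. The list holds 41 genes measured at gene level whose exons are known to be regulated in EMT. How many of them entered the exon test was not counted. In that test 5.39% of all genes held a called probeset, and the list was not tested against this share. Coro6, a coronin, had probeset 5244419 at 8.27, 8.13 and 9.19 in 4T07 tumours and under 5.08 in 67NR tumours, at 2.95, 2.63 and 4.11, while the gene rose by 2.04.

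The genes with the most probesets called by both tests, chosen after their values were seen, were Col7a1 with 27 of 115, Abcb1a and Itgb4 with 10 each and Card10 with 9. Col7a1, the collagen of anchoring fibrils, rose by 1.25 as a gene, with 18 of the 27 probesets relatively higher and 9 relatively lower. Abcb1a, a drug efflux pump, changed by 0.49 and did not pass, with 3 probesets relatively higher and 7 relatively lower. Its neighbour Abcb1b is nearly identical in sequence and stood at 8.47, 8.50 and 8.67 in 4T07 tumours, against 10.02, 10.45 and 10.50 in 67NR tumours, so probes of Abcb1a could read either gene and its exon calls are uncertain. Of 48 splicing regulators, 6 were higher and 2 lower, 12.5% and 4.17%, against 11.0% and 12.7% of all genes. Among them Mbnl2 was higher by 1.20 and Esrp2 by 0.98, or 0.64 without 4T07 array 3. The lower count was 0 without 4T07 array 1 or any single 67NR array, and 1 without 4T07 array 2 or 3.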

How the data were processed

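Gene expression was measured on 12 Affymetrix mouse exon arrays, 3 per line. The authors deposited 1 value for each probeset on each array, taken here as a log2 signal because of the range it covers, while the summary method, background correction, normalization and genome build are not given in the sources used here. Values were used as deposited, and 0 columns were left out. Of 228090 probesets, 207232 had 1 gene symbol, 3882 several and 16976 none, and only the first were used. Of 16207 symbols, 2111 were updated through RefSeq's gene table (GRCm38.p6, names only) and 41 were kept.

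Gene levels were medians over at least 3 probesets. Groups came from the sample titles. limma 3.58.1 (with R 4.3.3) fitted a mean per line to all 12 arrays with lmFit and eBayes, and every adjusted p of a gene is from that fit over 15025 genes after Benjamini-Hochberg adjustment. Exon probesets above the 25th percentile, in genes above the 50th percentile with at least 4 such probesets, were tested with diffSplice and with a splicing index (probeset minus the median of its gene's tested probesets on the same array). Both tests were tried on simulated data with 200 changed genes or probesets, where diffSplice alone made many more false calls than the 2 together. Calls by both are a part of the diffSplice calls, so they could not hold more false ones. The simulated exon data held no gene-level change, so level probesets in changed genes were not tested there. The text leads with probesets called by both. "At least" folds compare the brighter line's mean with the background level. Pairing by replicate number was checked by correlating deviations from the line means. Same-numbered 4T07 and 67NR arrays gave -0.0861, 0.155 and -0.0704, and differently numbered ones -0.160 to 0.224. No pairing was seen, but with 3 arrays a line this check cannot exclude it.

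The lines compared and the 30 gene lists were chosen with earlier results of these data known. Genes named by size were called genes with no overlap between the lines. They were the 12 largest rises and falls above background and the 8 brightest that rose or fell by at least 2 from or to background. To these came up to 8 per list by size of change. Of genes apart from the other lines, the 12 with the largest smallest-of-3 change in each direction were named. List members whose role is described were named whether called or not. Exon probesets named were the largest change of each of 12 leading genes and every call in the EMT exon list. Alternatives were the arrays in the fit, mean against median, quantile normalization, median centring, filters on level and probesets, a variance trend, a replicate block and leaving out each array.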

Additional observations from a re-analysis of the deposited data

How the results depend on the processing

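The count of genes between 4T07 and 67NR stayed between 2837 and 4255 when other settings replaced the main one, and between 2563 and 3348 without each array of either line. Against 4T1 it ran from 156 to 531 and against 168FARN from 3331 to 4135 without each array, and genes apart from all lines ran from 42 to 93. Dropping 168FARN arrays 2 and 3, which carry muscle RNA, was chosen after seeing the data and left 2112 genes against 168FARN. That fit has fewer samples. Exon calls ran from 673 to 843 without each array. They numbered 421 with probesets above the 50th percentile, where fewer were tested, 356 with a relative change of at least 1.5, and 401 by both tests, a count added after seeing the data. The apart count could not be fitted with the arrays of 2 lines only. With the replicate block the 5 counts were 3666, 349, 4354, 73 and 788, all within 1.5 times the main ones. Since no pairing by number was seen, the block serves as a check alone.

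Of 287 named genes, some of them not called in the main fit, 39 lost their call under at least 1 of 15 alternatives. Of 4255 values, 0 reversed a call. In all, 4058 values kept direction and call or stayed uncalled, 177 lost a call and 20 gained one. For values uncalled in both fits the direction was not compared. The median change of all genes stayed between -0.06 and 0.01. The cause of these shifts was not tested. With 3 arrays a line and no measure of depth, signal near 5.08 cannot be told from background, so changes of genes there are bounds.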
